A study of Rattus norvegicus with 12 samples.

Results

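The inner root sheath keratins are the keratins of the sleeve of cells that surrounds a growing hair inside its follicle. They were taken by gene symbol from a list of 8 genes, the type I keratins Krt25, Krt26, Krt27, and Krt28 and the type II keratins Krt71, Krt72, Krt73, and Krt74. Of these, 7 had rows in both expression tables, among 25620 genes with read counts and 25524 genes with FPKM values (fragments scaled by gene length and library size). Krt74 was not matched in either table and is not analysed here. The 4 type I genes lie next to each other on chromosome 10, and the 3 type II genes lie next to each other on chromosome 7.

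RNA was sequenced from the wound tissue, labelled skin, of male SD rats made diabetic with streptozotocin, each with a full-thickness punch wound on the shaved back. The wounds received normal saline (control), the dried mucus gel of the snail A. fulica (d-SMG), the sulfated glycosaminoglycan of that gel (s-GAG), or a commercial alginate dressing (Alg), and tissue was collected on day 3, 7, or 14. There was 1 library for each of the 4 treatments on each of the 3 days, 12 in all. All groups, control included, therefore share diabetes, wounding, and shaving. The rats were obtained as young adults, and the number of animals behind a library is not given in the sources used here.

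A hair grows from matrix cells at the base of the follicle, which also form the inner root sheath around the new shaft. The sheath moulds and guides the shaft while it hardens, and it is made in the growth phase (anagen) and lost when growth stops. Its strength comes from keratin filaments, which form only when a type I (acidic) keratin pairs with a type II (basic) keratin, and from trichohyalin, which is cross-linked to them. Krt25, Krt27, Krt28, and Krt71 are known from every layer of the sheath, Krt26, Krt72, and Krt73 from its cuticle, and Krt74 from Huxley's layer. Mutations in Krt71 give rodents curly coats.

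Some libraries stood apart in genes other than these keratins. The totals ran from 13748887 to 38302461 reads on genes. The d-SMG library of day 3 held almost no epithelial RNA, with 263 reads of Krt14 and 98 of Krt5, the keratins of basal epidermis and outer root sheath, where the other 11 libraries held 37472 to 361150 and 13487 to 156018. It also had the highest summed level of 6 skeletal muscle markers, 202100 TMM CPM (reads scaled to library size with edgeR's trimmed mean of M values), in a range that began at 4868. The s-GAG library of day 14 was the only one with more than 2 reads of the pigment cell gene Tyr, 371, and the markers of melanocytes summed to 211.5 TMM CPM there and to 0.322 to 18.8 in the others. Skeletal muscle, fibroblast, and epidermal markers varied between the libraries along with the keratins below, and their part in the results was not tested.

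The start regions of the 7 genes are shown because the genes are neighbours in sequence and varied together. RefSeq places all of them on the minus strand in the build GRCr8. The sequences below are the 100 bases before the annotated start of each gene, 5′ to 3′ along the gene, with TATAAA, the core of a TATA box, in capitals where it occurs on that strand.
Krt25 (chr10:84771198-84771297): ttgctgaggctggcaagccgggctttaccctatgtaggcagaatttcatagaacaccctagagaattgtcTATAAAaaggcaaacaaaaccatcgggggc
Krt26 (chr10:84787002-84787101): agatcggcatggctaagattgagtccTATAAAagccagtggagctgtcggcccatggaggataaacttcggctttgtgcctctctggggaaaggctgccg
Krt27 (chr10:84800132-84800231): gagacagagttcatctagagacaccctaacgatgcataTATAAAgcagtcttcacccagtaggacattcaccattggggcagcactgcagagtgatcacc
Krt28 (chr10:84824858-84824957): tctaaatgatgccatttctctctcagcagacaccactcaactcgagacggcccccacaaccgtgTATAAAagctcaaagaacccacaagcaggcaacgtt
Krt71 (chr7:134761034-134761133): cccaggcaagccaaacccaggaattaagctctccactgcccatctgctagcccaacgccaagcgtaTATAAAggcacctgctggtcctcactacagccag
Krt72 (chr7:134799548-134799647): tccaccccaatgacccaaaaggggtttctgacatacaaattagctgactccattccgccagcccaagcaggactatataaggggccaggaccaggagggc
Krt73 (chr7:134815029-134815128): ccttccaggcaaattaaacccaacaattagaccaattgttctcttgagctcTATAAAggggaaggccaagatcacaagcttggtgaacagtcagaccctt
Within 250 bases before the start, TATAAA occurred on either strand in 7 of 7 genes, compared with 12.9% of 33469 rat promoters of the same length and 8 of 11 promoters of hair shaft keratins. On the strand of the gene and 40 to 20 bases before the start, it was found for Krt25, Krt28, and Krt71, compared with 1.22% of all promoters. For Krt72 the match lies on the other strand, outside these printed bases but within the stretch shown further below. On its own strand Krt72 has the similar word TATATAA, beginning 27 bases before the start. That word, found in 768 of the 33469 promoters, was not counted as TATAAA.

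Further motifs were searched on both strands in the same 250 bases, chosen with these sequences in view. AGATAA, a site for GATA factors such as the sheath regulator Gata3, was present in Krt25, Krt27, Krt71, and Krt73, compared with 10.3% of all promoters. TAATTG, a homeodomain core as bound by Dlx factors, was present in Krt25, Krt26, Krt28, and Krt73, compared with 7.31%. Neither of these was present in the 11 promoters of hair shaft keratins. CTTTGA, the core bound by Lef1, was present in Krt28, compared with 13.9% of all promoters, and in 6 of the 11 shaft promoters. No match overlapped one of another motif. Such matches are descriptions of letters, not of binding.

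The type II genes also shared a longer stretch farther upstream. The 110 bases from 250 to 141 bases before the start are shown for the 3 type II genes, with TTGCAAGC and AGATAA in capitals.
Krt71 (chr7:134761174-134761283): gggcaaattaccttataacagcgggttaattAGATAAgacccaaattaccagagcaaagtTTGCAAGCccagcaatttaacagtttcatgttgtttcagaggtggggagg
Krt72 (chr7:134799688-134799797): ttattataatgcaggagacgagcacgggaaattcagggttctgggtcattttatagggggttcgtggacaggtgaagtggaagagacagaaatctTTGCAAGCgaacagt
Krt73 (chr7:134815169-134815278): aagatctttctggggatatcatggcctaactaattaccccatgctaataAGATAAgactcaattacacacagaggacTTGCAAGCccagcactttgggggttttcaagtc
TTGCAAGC was present in all 3 and in 119 of the 33469 promoters. In Krt71 and Krt73 the identity extended to 14 bases, TTGCAAGCCCAGCA, which began 190 and 173 bases before the start and occurred in these 2 promoters only. Among the type I genes, Krt26 and Krt27 shared the 11 bases TCACCCACTTA, also found in 2 promoters only. The longest run shared between a type I and a type II gene was 9 bases.

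The keratins of the sheath were close to absent in control wounds on day 3 and day 7 and were among the abundant transcripts of some treated wounds. All 7 together took 262 reads in the control library of day 3, 230 on day 7, and 6404 on day 14. In d-SMG they took 45, 16793, and 17768. For s-GAG the sums were 37971, 60538, and 48691. The Alg libraries held 18537, 1798, and 113316. As a share of all reads on genes, the range ran from 0.000268% (exact 95% interval 0.000196% to 0.000359%) in d-SMG on day 3 to 0.767% (0.762% to 0.771%) in Alg on day 14. These intervals, and those below, cover counting error only. In tissue of mixed cells, fewer sheath cells and less RNA per cell cannot be told apart.

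**Figure D1:**
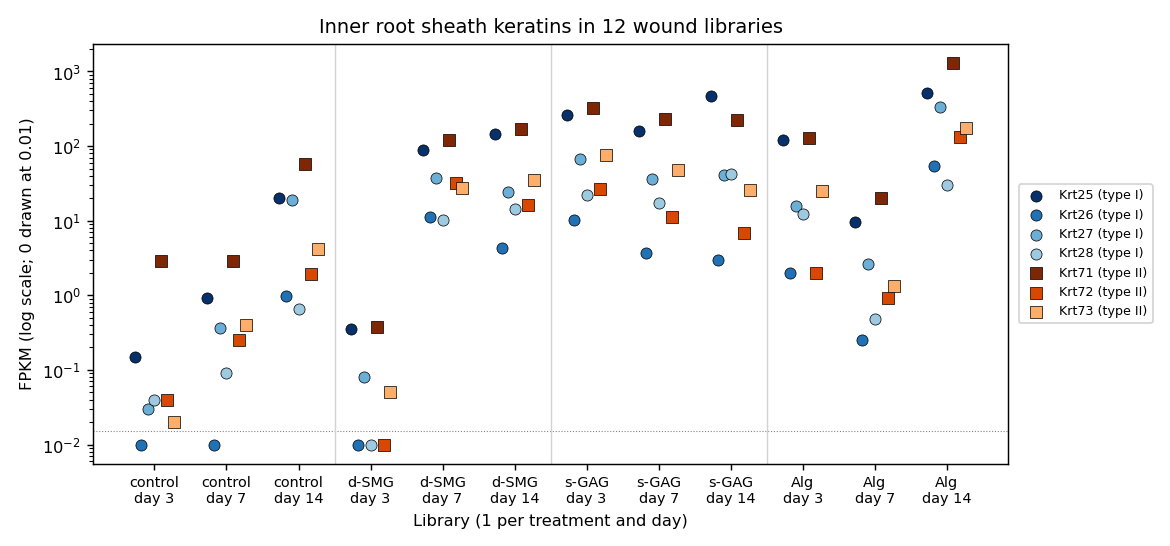
FPKM (log axis, 0 drawn at 0.01 below the dotted line) of the 7 inner root sheath keratins in each of the 12 libraries, with circles for type I, squares for type II, and 1 library per treatment and day. Krt71 stood highest in 11 of the 12 libraries, and the control libraries of days 3 and 7 and the d-SMG library of day 3 lay far below the others.

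Krt71, the main type II keratin of the sheath, was the most abundant member per gene length. Its FPKM in control was 2.87, 2.88, and 56.86 on days 3, 7, and 14. It was 0.38, 121.04, and 167.0 in d-SMG, 319.91, 229.12, and 221.96 in s-GAG, and 129.83, 20.05, and 1295.97 in Alg. Control was thus low on days 3 and 7, and Alg was high on day 14, when Krt71 ranked 35th of all genes by FPKM in that library. The values of the 3 s-GAG libraries lay within a narrow band, and those of the other groups did not.

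Krt25, the most abundant type I partner, had FPKM values of 0.15, 0.91, and 20.03 in control and 0.35, 87.67, and 145.49 in d-SMG. In s-GAG they were 261.69, 160.56, and 472.05, and in Alg 122.16, 9.59, and 522.3. The order of the libraries resembled that of Krt71, except that Krt25 exceeded Krt71 in s-GAG on day 14. On that day its level in s-GAG was below that in Alg by FPKM but above it by TMM CPM (1940 and 1481), so that the order of these libraries depends on the scaling.

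Krt27 and Krt28, the other type I keratins found in all layers, were lower than Krt25. Krt27 was 0.03, 0.37, and 19.1 FPKM in control, 0.08, 36.89, and 24.11 in d-SMG, 67.33, 35.78, and 40.65 in s-GAG, and 15.63, 2.61, and 331.24 in Alg. For Krt28 the FPKM was 0.04, 0.09, and 0.65 in control, 0, 10.09, and 14.29 in d-SMG, 22.19, 17.21, and 41.78 in s-GAG, and 12.13, 0.48, and 30.46 in Alg. Krt27 was thus near the d-SMG level in the control library of day 14, whereas Krt28 in that library remained low, at 31 reads. RefSeq places another locus over part of Krt28, LOC108352132, which had 2 to 129 reads per library, so that some reads could belong to either.

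Krt26, a type I cuticle keratin, had 0 reads in the control libraries of days 3 and 7 and in d-SMG on day 3, where a count of 0 allows up to 3 reads, and 59 in control on day 14. It had 589 and 180 reads in d-SMG on days 7 and 14, 481, 424, and 171 in s-GAG, and 113, 12, and 2388 in Alg. Its highest FPKM, 54.58 in Alg on day 14, was far above the median of 2.47 over the 12 libraries.

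Krt72, a type II cuticle keratin, had 2, 8, and 83 reads in control, 0, 1215, and 493 in d-SMG, 896, 935, and 281 in s-GAG, and 80, 31, and 4138 in Alg. Krt73, its neighbour in the genome and in the cuticle, had 1, 14, and 200 reads in control and 2, 1131, and 1151 in d-SMG. In s-GAG it had 2859, 4372, and 1156, and in Alg 1125, 49, and 5988. Both were highest in Alg on day 14, at 132.17 and 174.2 FPKM, and lay below 0.5 FPKM in the control libraries of days 3 and 7.

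The order of the groups was shared only in part by the members on each day. On day 3 s-GAG was the highest of the 4 libraries for 7 of 7 genes by TMM CPM. On day 7 s-GAG was highest for 5 and d-SMG for 2 (Krt26 and Krt72), and on day 14 Alg for 5 and s-GAG for 2 (Krt25 and Krt28). The share of all genes with a given treatment highest was not computed, so these counts describe the order of the members only. Control was the lowest for 7 of 7 genes on day 7 and on day 14, where 25.7% and 28.1% of all genes had control lowest. On day 3 control was lowest for 3 genes (22% of all genes), d-SMG was lowest for 3, and both were at 0 for Krt26. Of those, Krt27 and Krt73 rested on 1 read in control and 2 in d-SMG, and Krt28 and Krt72 on 2 and 0.

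On each day a treatment can be set against saline only as 1 library against 1, without a replicate check and thus without a p-value. A treatment effect cannot be told apart there from differences between wounds, animals, or the tissue taken. Ratios of TMM CPM are given with exact counting intervals, genes with at least 10 reads in both libraries together were considered, and a ratio of at least 4-fold was counted. The 9 comparisons use 3 control libraries, so the 3 treatments of a day share a control. Where a control library had few reads, a gene entered only because its treated library was high, so the counts of members describe these libraries and support nothing more.

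On day 3, the s-GAG library exceeded control by at least 4-fold for 7 of 7 members, in a comparison in which 4.85% of all genes did so. The ratio was 102.5 (90.4 to 116.7) for Krt71, from 18392 reads over 245, and 1606 (897 to 3218) for Krt25, from 12939 over 11. Krt73 was higher by a ratio of 3904 with an interval of 700.1 to 154200, since control had 1 read. Krt26 was at least 219-fold higher, against a floor of 3 reads. In control, 5 of the 7 genes had 3 reads or fewer on this day.

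The Alg library of day 3 exceeded control for 7 of 7 members as well, where 2.86% of all genes did. Its ratios were lower than those of s-GAG, with 42.7 (37.6 to 48.7) for Krt71 and 770 (430.1 to 1543) for Krt25. Krt26 was at least 43.9-fold higher. Krt72, at 46.7 (12.5 to 391.9), rested on 80 reads over 2.

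The d-SMG library of day 3, which held almost no epithelial RNA, gave another picture. Only Krt25 and Krt71 had enough reads. Krt71 was 5.56-fold lower than in control (3.62 to 8.94), at 23 reads over 245, where 5.33% of all genes were at least 4-fold lower. Krt25 had a ratio of 3.13 (1.40 to 7.34), and 0 members were at least 4-fold higher, compared with 2.52% of all genes.

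On day 7, d-SMG exceeded control by at least 4-fold for 7 of 7 members (1.34% of all genes), and so did s-GAG (4.19%). The ratios for d-SMG ran from 33.5 (28.6 to 39.5) for Krt71 to 102.4 (51.8 to 237.8) for Krt72, beside a bound of at least 132-fold for Krt26. Those for s-GAG ran from 44.1 (22.3 to 102.5) for Krt72 to 196.8 (67.2 to 955.4) for Krt28, with 77.8 (66.5 to 91.7) for Krt71. The skeletal muscle markers were at 4868 TMM CPM in this d-SMG library and 54300 in control. In d-SMG 6 of 6 were at least 4-fold lower than in control (2.05% of all genes). In s-GAG they were at 41820, and 0 of 6 were at least 4-fold lower (3.67%).

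Alg was the lowest of the treatments on day 7. Its library exceeded control by at least 4-fold for 4 of 7 members (2.58% of all genes), with 11.2 (8.16 to 15.8) for Krt25, 7.57 (3.61 to 18.3) for Krt27, 5.96 (1.74 to 31.6) for Krt28, and 7.39 (6.24 to 8.79) for Krt71. The 3 cuticle keratins were not counted. Krt72 had a ratio of 3.85 (1.73 to 9.69), Krt73 one of 3.48 (1.89 to 6.82), and Krt26 a bound of at least 3.97 from 12 reads over 0. The counting intervals of Krt72 and Krt73 extend past 4, and a bound does not place Krt26 below it, so members on either side of 4-fold cannot be separated at this depth.

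**Figure D2:**
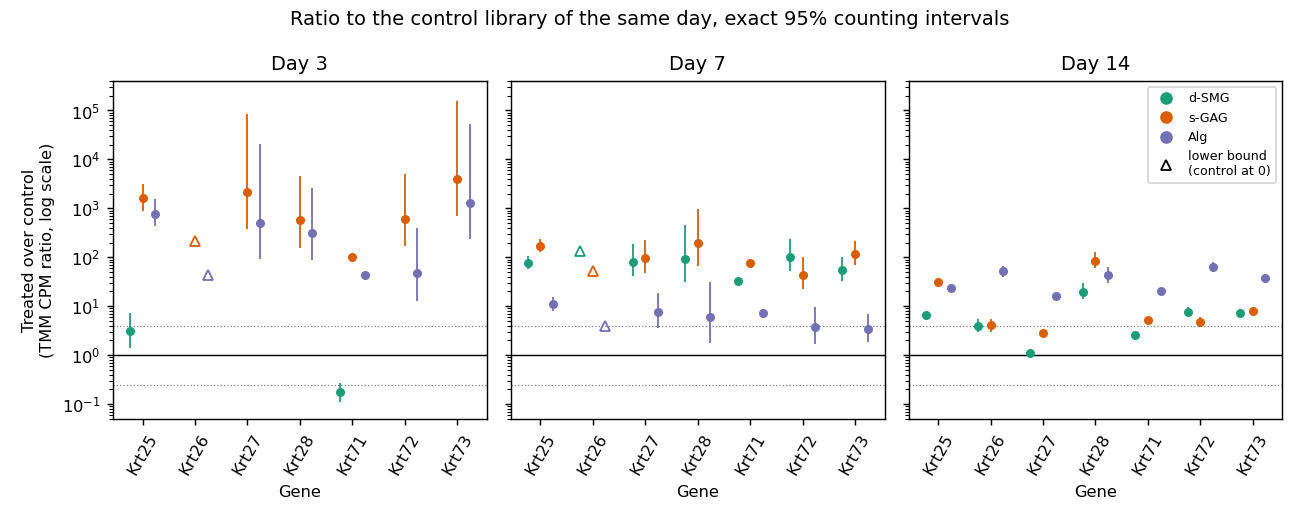
Ratio of each treated library to the control library of the same day (TMM CPM, log axis) for the 7 inner root sheath keratins, with exact 95% counting intervals and open triangles for lower bounds where control had 0 reads. The solid line marks equality and the dotted lines 4-fold, and Krt71 in d-SMG on day 3 is the only point below the lower dotted line.

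On day 14 the keratins were measured in control as well, and the ratios could be read more precisely. Compared with day 7, the ratios of d-SMG and s-GAG were smaller. Those of Alg were larger, after 3.48 to 11.2 on day 7 for the members with reads in control. Alg exceeded control by at least 4-fold for 7 of 7 members (3.15% of all genes), from 15.9 (14.6 to 17.3) for Krt27 to 63.4 (51.1 to 79.8) for Krt72. Krt71 was 20.9-fold higher (20.2 to 21.6) in this library, and Krt25 23.9-fold (22.6 to 25.3). All 3 cuticle keratins had larger ratios than either of these, with 51.5 (39.8 to 67.9) for Krt26 and 38.1 (33.1 to 44.1) for Krt73. So did Krt28, a keratin of all layers, at 43.2 (30.3 to 63.9).

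The s-GAG library of day 14 exceeded control for 6 of 7 members, in a comparison in which 11.3% of all genes did. The ratios were uneven, with 85.9 (60.3 to 126.8) for Krt28 and 31.3 (29.6 to 33.2) for Krt25, but 5.19 (5.01 to 5.37) for Krt71 and 2.83 (2.56 to 3.13) for Krt27. With library totals in place of TMM scaling, 3 of 7 members passed 4-fold, since Krt26, Krt71, and Krt72 lay close to the threshold.

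For d-SMG on day 14, 4 of 7 members were at least 4-fold higher than control (3.09% of all genes). These were Krt28 at 19.8 (13.8 to 29.5), Krt72 at 7.66 (6.06 to 9.78), Krt73 at 7.42 (6.38 to 8.67), and Krt25 at 6.51 (6.13 to 6.92). Krt26 had a ratio of 3.93 (2.92 to 5.37) and Krt71 one of 2.63 (2.54 to 2.73). Krt27 was at 1.13 (1.002 to 1.28), close to equality. In all treatments of this day Krt27 had the smallest ratio, and Krt28 the largest in d-SMG and s-GAG.

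Over the 3 days, treatments were compared by the quasi-likelihood test of edgeR on counts, with treatment and day as terms, so that the days serve as replicates. At an FDR of 0.05, 0 of 16110 genes (0%) were called for any treatment against control, and 0 of the 7 members. For s-GAG the fitted log2 differences of the members were 5.41 ± 1.71 (SE) for Krt71 to 7.38 ± 1.78 for Krt28, all above 0, with adjusted p-values of 0.417 to 0.504 in this edgeR test. The median was 6.74, beside 0.0021 for all genes. At an unadjusted p under 0.05 in the same fit, 7 of 7 members passed, compared with 9.26% of all genes. Without the s-GAG library of day 3, the differences of Krt26, Krt27, and Krt72 were 3.64, 3.49, and 3.49 in place of 6.50, 5.91, and 6.74. Without the control library of day 14, that of Krt26 was 11.3.

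The fitted log2 differences for Alg were 4.56 to 6.002, with a median of 5.59 (all genes -0.027) and adjusted p-values of 1 by edgeR. Unadjusted p under 0.05 was reached by 7 of 7 members and by 3.12% of all genes. For d-SMG the differences were 2.88 ± 1.62 (Krt71) to 5.42 ± 2.52 (Krt26), with a median of 4.48 (all genes -0.030), adjusted p-values of 1 by edgeR, and 4 of 7 members under 0.05 unadjusted, compared with 1.35% of all genes. The d-SMG differences rested largely on the d-SMG library of day 7. Without it they were 0.18 for Krt27, 0.53 for Krt71, 1.60 for Krt72, 1.89 for Krt26, 2.23 for Krt73, and 2.26 for Krt25, with a median of 1.89. Without the control library of day 14, Krt26 and Krt27 were instead at 10.1 and 5.63 for d-SMG and at 11.2 and 7.70 for Alg. Without the Alg library of day 14, Krt26 and Krt72 were at 2.92 and 2.04 for Alg. The members varied more around this model than most genes, with a biological coefficient of variation of 1.03 for Krt71 to 1.504 for Krt26, where the median gene had 0.426. DESeq2 on the same counts called 6 members for s-GAG (all but Krt26), out of 282 genes called. For Alg it called 3 (Krt25, Krt28, and Krt71), out of 93, and for d-SMG 0, out of 9. It was run on a wider set of genes than the edgeR fit, and no share of all genes is set beside these counts.

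The days were compared in the same fit, with the 4 treatments as replicates. Day 14 exceeded day 3 by fitted log2 differences of 2.25 (Krt28) to 4.26 (Krt27), with an adjusted p of 0.882 by edgeR for each member. At an unadjusted p under 0.05, 3 of 7 members passed (Krt25, Krt27, and Krt71), compared with 4.95% of all genes. For day 14 against day 7 the differences were 1.95 to 3.20 and 0 members passed unadjusted (3.12% of all genes), and for day 7 against day 3 they were 0.30 to 1.78 and 0 passed (1.81%). The FDR of 0.05 was met by 0% of genes in each. Leaving out the d-SMG library of day 3 turned the day 7 against day 3 difference below 0 for 6 of 7 members, as for Krt28 at -0.81, so no direction is given for that step.

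The groups took different courses. The summed member level in control was 11.0, 15.7, and 312.7 TMM CPM on days 3, 7, and 14, and in d-SMG it was 3.62, 773.0, and 1118. For s-GAG it was already 2177 on day 3, then 1560 and 3319. In Alg it was 908.0, 121.9, and 7040, the lowest of its 3 libraries being that of day 7. With 1 library at each point, no change between days within a treatment was tested.

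Keratin filaments pair type I with type II chains, so the balance of the types was read per gene length. In the 9 libraries with at least 1000 member reads, summed type I FPKM was 0.580 to 0.968 of summed type II FPKM in 8, and 2.19 in s-GAG on day 14. In that library Krt25 made up 58.2% of the member FPKM, compared with 19.3% to 39.6% in the other 8, and Krt71 27.4%. In the remaining 3 libraries at most 262 reads stood behind the ratio. The control library of day 3 was 91.1% Krt71 by FPKM, with 245 of its 262 member reads on that gene, and its ratio was 0.0751.

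**Figure D3:**
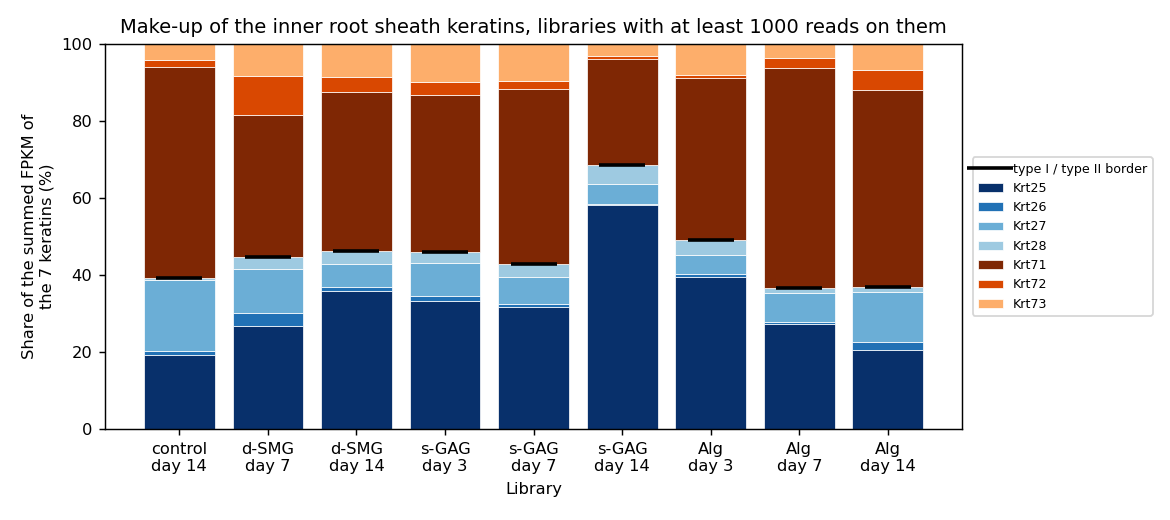
Share (%) of each of the 7 keratins in their summed FPKM, in the 9 libraries with at least 1000 reads on them, with type I in blue, type II in brown, and a black bar at the border of the types. Type I took 36.7% to 49.2% of the sum in 8 libraries and 68.7% in s-GAG on day 14.

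The cuticle keratins did not keep a fixed ratio to the main keratins. Over those 9 libraries Krt72 ranged from 0.892 reads per 100 reads of Krt71 (0.706 to 1.11) in Alg on day 3 to 15.8 (14.8 to 16.8) in d-SMG on day 7, a 17.7-fold range. Krt26 ranged from 0.601 per 100 reads of Krt25 in s-GAG on day 14 to 12.3 in d-SMG on day 7, a 20.5-fold range. The third cuticle keratin, Krt73, ranged 3.66-fold, from 4.25 to 15.5 per 100 reads of Krt71.

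Krt26 and Krt72 shared their highest libraries. Both ratios were largest in d-SMG on day 7 and next largest in Alg on day 14, at 10.02 for Krt26 and 6.02 for Krt72. They were among the 3 smallest together in Alg on day 3, at 1.56 and 0.892, and in s-GAG on day 14, at 0.601 and 1.81. The control library of day 14 went the other way, with the third largest ratio of Krt26, 4.65, and the third smallest of Krt72, 1.98. The largest and smallest of these ratios differed by more than their counting intervals. The ranks of control on day 14 were not separated from the next library. Its Krt72 interval, 1.57 to 2.46, overlapped that of s-GAG on day 14, 1.60 to 2.03. Its Krt26 interval, 3.52 to 6.04, overlapped that of s-GAG on day 3, 3.39 to 4.07. The spread between animals is not known.

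Among the keratins of all layers, Krt28 kept the closest ratio to Krt25, from 2.44 to 8.72 reads per 100, a 3.57-fold range. Krt27 ranged 11.1-fold, from 4.07 in s-GAG on day 14 to 45.1 in control on day 14. The control library of day 14 thus combined the largest Krt27 ratio with the smallest Krt28 ratio. It also had the smallest ratio of Krt25 to Krt71, 30.3 reads per 100, where s-GAG on the same day had 182.9. Its Krt28 ratio rested on 31 reads of Krt28. The interval of that ratio, 1.65 to 3.485, overlapped that of Alg on day 7, 2.23 to 6.07, so this rank was not separated.

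**Figure D4:**
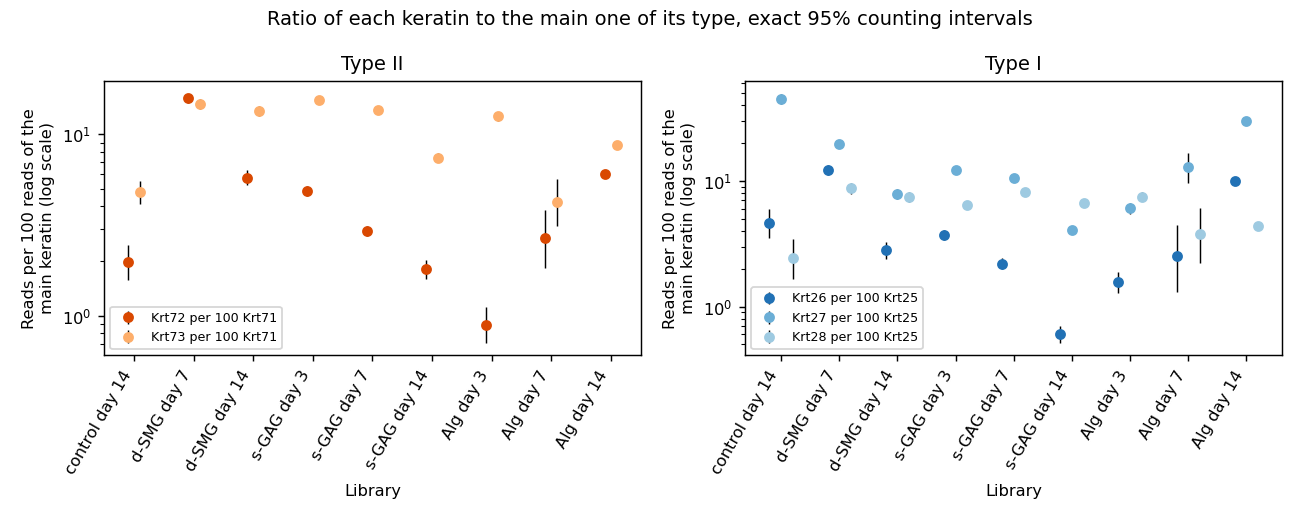
Reads of each minor keratin per 100 reads of the main keratin of its type (log axis), Krt71 on the left and Krt25 on the right, in the 9 libraries with at least 1000 member reads, with exact 95% counting intervals. Krt72 and Krt26 were both highest in d-SMG on day 7, at 15.8 and 12.3.

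The genes with the profile most like that of the sheath keratins included several of the hair-forming compartment. Likeness was the root mean square difference in log2 (TMM CPM + 0.5) between a gene and the mean of the members over 12 libraries, each centred on its own mean, among 14111 other genes. The 10 nearest were Crnn (0.828), Krt85 (0.862), Tchhl1 (0.892), Tchh (0.933), Krt31 (0.941), Krt32 (0.954), Padi3 (1.08), Dlx3 (1.08), Kb23 (1.12), and Krt75 (1.14), where the median gene had 2.97. The members themselves lay 0.412 (Krt73) to 0.978 (Krt25) from their mean. Krt85, Krt31, and Krt32 are keratins of the hair shaft, Krt75 is the keratin of the companion layer around the sheath, and Dlx3 is a homeobox factor of the hair matrix. Crnn, Tchhl1, and Tchh belong to the fused S100 family of cornifying epithelia. With a pseudocount of 2, 7 of the 10 were kept, and without the libraries of day 3, 8 were.

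Tchh encodes trichohyalin, the matrix protein of the sheath, and Padi3 an enzyme that modifies it. Tchh had 467, 990, and 47805 reads in control, 248, 48214, and 50602 in d-SMG, 140852, 256873, and 22890 in s-GAG, and 39647, 4946, and 561676 in Alg. Set against the keratins, it had 2.14 to 7.47 reads per member read in 8 of the 9 libraries above and 0.470 in s-GAG on day 14. In that library Tchh was low and Krt25 high, and it is the same library in which melanocyte markers were highest and Vdr, a receptor needed for hair cycling, had 18 reads, compared with 205 in control on that day. The part of these differences in the keratin values was not tested.

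Of 13 other genes of the sheath, which include Tchh, the secreted protease inhibitor Cst6, and the transcription factor Cux1 as the most abundant, 0 were called in any comparison of edgeR. Over the 3 days their median log2 difference was 1.61 for s-GAG, 0.97 for Alg, and -0.09 for d-SMG, smaller than those of the keratins in each case. On day 3, 5 of 13 were at least 4-fold higher in s-GAG (4.85% of all genes) and 4 of 13 in Alg (2.86%). In the d-SMG library of that day, 0 of the 11 with enough reads were higher and 5 were at least 4-fold lower (5.33% of all genes), with a median log2 ratio of -1.38. Cst6 and Cux1, which are also expressed outside the sheath, were not near the members in profile, at 2.06 and 3.06.

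The keratins of the hair shaft, which the sheath surrounds, followed the members. Of 15 genes, 13 were among the 100 nearest in profile. Their fitted log2 differences over the 3 days were above 0 for 15 of 15 in each treatment, with medians of 7.63 for s-GAG, 7.06 for Alg, and 4.18 for d-SMG, and 0 were called by edgeR. Krt35, Krt85, and Krt31, the most abundant, had 44, 101, and 62 reads in control on day 14 and 4308, 8638, and 11498 in Alg.

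The amount of shaft keratin beside sheath keratin differed between the libraries. There were 6.03 shaft reads per 100 sheath reads in control on day 14, from 386 and 6404 reads. The other 8 libraries with at least 1000 sheath reads had 18.0 (d-SMG on day 14) to 55.6 (Alg on day 14). The control library of day 14 thus had sheath keratins at a time when shaft keratins were at 18.8 TMM CPM, compared with 201 to 3912 in the treated libraries of that day.

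Of 11 regulators of the hair matrix, 0 were called by edgeR, and their median log2 differences over the 3 days were 3.08 for s-GAG, 2.33 for Alg, and 0.79 for d-SMG. Lef1, which carries Wnt signals in the matrix, had 34, 72, and 67 reads in control, 8, 215, and 517 in d-SMG, 837, 1438, and 1306 in s-GAG, and 946, 71, and 837 in Alg. Ovol1 and Vdr were the next by abundance, at 0 to 736 and 4 to 962 reads. Lef1 was thus low in control throughout, and in Alg it was low on day 7, as the members were.

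The level of the sheath keratins was not proportional to that of Krt14. Krt14 had 73682 reads in control on day 3 and 106704 in Alg on the same day, yet the members had 3.56 reads per 1000 Krt14 reads in the former and 173.7 in the latter. The value on that day was 383.4 in s-GAG and 171.1 in d-SMG, the latter from 45 reads over 263. Per Krt14 read the d-SMG library of day 3 thus lay above control, the opposite of its Krt71 ratio by TMM CPM. On day 7 the corresponding values were 6.14 in control, 167.8 in d-SMG, 184.0 in s-GAG, and 14.0 in Alg. On day 14 they were 129.6 in control, 105.8 in d-SMG, 134.8 in s-GAG, and 922.8 in Alg. Per Krt14 read, control on day 14 therefore lay between d-SMG and s-GAG, whereas it was lowest for every member by TMM CPM.

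The 5 suprabasal epidermal genes measured, which mark the skin between follicles, summed to 4460 TMM CPM in control on day 14, the highest of the 12 libraries, and to 108.6 and 426.8 in d-SMG and s-GAG on that day. Alg on day 14 had 3397. Markers of dermal papilla, the signalling centre under the matrix, summed to 1.77 to 13.6 TMM CPM, and those of sebaceous gland to 16.3 to 829. The adipocyte, macrophage, and fibroblast markers ranged from 499.6 to 2309, 378.3 to 3100, and 5819 to 43490, and how much follicle-bearing skin entered each sample was not measured.

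**Figure D5:**
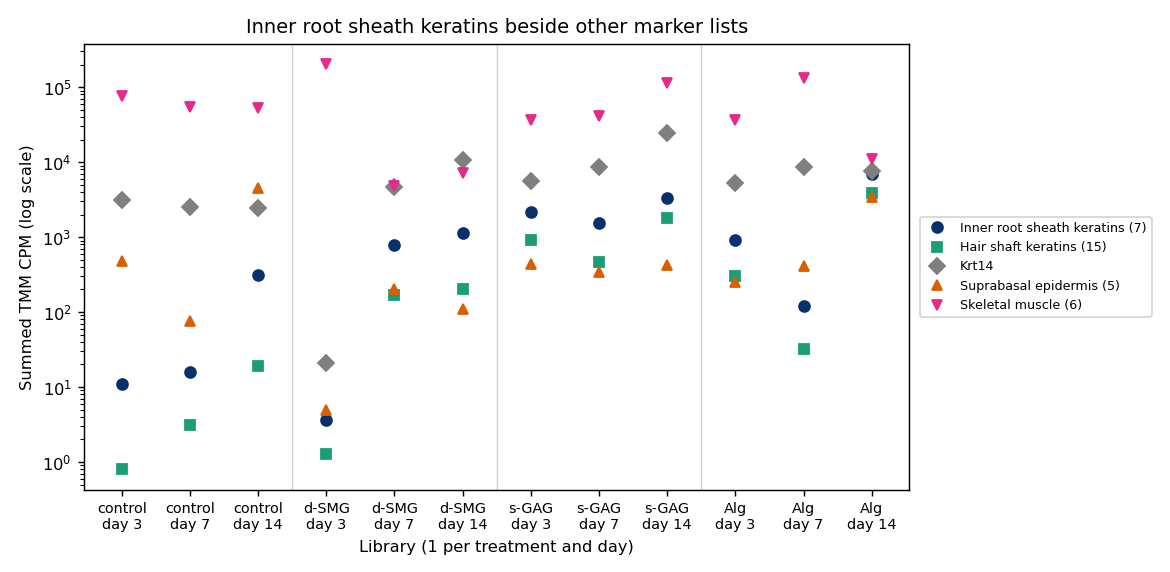
Summed TMM CPM (log axis) of the 7 inner root sheath keratins, 15 hair shaft keratins, 5 suprabasal epidermal genes, and 6 skeletal muscle genes, with the single gene Krt14, in each of the 12 libraries. Sheath and shaft keratins were at 11.0 and 0.798 in control on day 3 and were both highest in Alg on day 14, at 7040 and 3912. They did not order all libraries alike, as in d-SMG on day 3, at 3.62 and 1.29. Krt14 stayed between 2413 and 24620 in all libraries but d-SMG on day 3, at 21.2.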

How the data were processed

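Wound tissue RNA was sequenced as stranded, rRNA-depleted libraries with paired reads of 150 bases, 1 per treatment and day. The authors deposited whole-number read counts per gene and FPKM values, which they had scaled by gene length and library total. The submitters' notes name bcl2fastq, FastQC, TopHat2, and edgeR, without versions. The counting tool and the genome build are not given in the sources used here. A column in each table (1 per table) matched no described sample and was not used.

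The members and gene lists were chosen with earlier results of these data known. Counts were scaled by TMM and tested by quasi-likelihood in edgeR 4.0.16 (R 4.3.3), with day and treatment as terms, filterByExpr, and Benjamini-Hochberg adjustment over all genes. Standard errors were derived from the test statistic. Days stand in for replicates when treatments are compared, and treatments do so when days are compared. The p-values therefore measure the spread of single libraries around the fit of both terms. A treatment difference that is unequal between days adds to that spread. On each day, ratios of TMM CPM carry exact Clopper-Pearson intervals at 95% (scipy 1.17.1), without a test. A treated gene against 0 reads is given as a bound against 3 reads. Both procedures were tested on simulated data, the settings and outcome of which are not given here. No weight is placed on that test for genes with as few control reads or as wide a spread as the members. The labels of the s-GAG libraries read GAG.

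The named genes are the members, the 10 genes nearest in profile, and the 3 most abundant genes of the hair lists. Others (Krt5, Tyr) are named because a library stood apart in them, which was seen after the values. Promoter sequences come from RefSeq (GRCr8), where 7 of 8 members matched, and protein sequences were not used here. Counting error shrinks with depth (13748887 to 38302461 reads), but the spread between animals was not measured. Alternatives were DESeq2 1.42.0, other scalings, filters, folds, FPKM with pseudocounts of 1 and 0.1, a fit with the term of the comparison only, and leaving out libraries, days, or treatments.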

Additional observations from a re-analysis of the deposited data

Results flagged for a closer look

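Krt71 lay on opposite sides of control in the d-SMG libraries of 2 days. Its log2 ratio of TMM CPM to control was -2.48 on day 3 (23 reads over 245) and 5.07 on day 7 (7694 over 155), both past 4-fold. The difference between the days was not tested, since each ratio rests on 1 library against 1. The d-SMG library of day 3 is the one with 263 reads of Krt14, and the part of that in the value of Krt71 was not tested.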

How the results depend on the processing

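No change of the side of 0 was counted in the 344 recomputed ratios to control on single days. Such a change was counted there only for members past 4-fold in the main setting. Other read minimums, included in the 344, cannot alter a ratio. The side of 0 was also kept in all 441 recomputed treatment differences over the 3 days. It was kept as well in all 308 of day 14 against an earlier day. With FPKM and a pseudocount of 1, 52 single-day ratios left their counting intervals and 6 did not. With a pseudocount of 0.1, 18 left them and 40 did not, and by library totals 12 left them. Without division by gene length, the ratio of type I to type II left its counting interval in 9 libraries and stayed inside in 3. The sizes of the treatment differences were less stable than their side of 0. Leaving out 1 library or day moved the median member over 1.89 to 6.09 (d-SMG), 3.98 to 8.29 (s-GAG), and 3.78 to 7.41 (Alg), and single members over 0.18 to 11.4, 3.49 to 11.6, and 2.04 to 11.2. The libraries behind moves of over 1.5 times were d-SMG day 7, s-GAG day 3, Alg day 14, and control day 14. The step from day 3 to day 7 had no stable direction. Leaving out libraries, days, or treatments moved its log2 difference over -0.99 to 2.34 (Krt25), -1.55 to 4.05 (Krt26), -0.77 to 3.72 (Krt27), -1.28 to 1.84 (Krt28), -0.77 to 1.99 (Krt71), -0.31 to 5.08 (Krt72), and -0.67 to 3.06 (Krt73). With day as the only term it was Krt25 -0.56, Krt27 -0.14, Krt28 -0.29, Krt71 -0.26, and Krt73 -0.38, and without the d-SMG day 3 and s-GAG day 14 libraries, an alternative added after the data were seen, Krt25 -0.57, Krt26 -0.68, Krt27 -0.17, Krt28 -0.87, Krt71 -0.37, and Krt73 -0.27.

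The number of members called was 0 in every comparison, but 4 (d-SMG), 7 (s-GAG), 7 (Alg), and 3 (day 14 against day 3) at an unadjusted p under 0.05, and 6 (s-GAG) and 3 (Alg) by DESeq2. Leaving out single libraries, days, or treatments gave 0 to 1 for s-GAG, the 1 being Krt28 without the d-SMG library of day 3 (66 genes called in all), and 0 elsewhere. Without that library and s-GAG day 14 it was also 1 (177 genes called). The genes tested by DESeq2 and in these smaller fits were chosen anew, and no share of all genes is set beside their counts. On single days, members past the fold moved as follows. The share of all genes past the fold was not computed at these other settings, so the counts show only how the members moved. For d-SMG on day 3 there was 1, but 0 with FPKM and a pseudocount of 1, 2 at 2-fold, and 0 at 8-fold. For Alg on day 7 there were 4, but 2 with FPKM and a pseudocount of 1, 7 at 2-fold, and 1 at 8-fold. For d-SMG on day 14 there were 4, and 1 at 8-fold. For s-GAG on day 14 there were 6, but 3 by library totals, 3 with FPKM and either pseudocount (1 or 0.1), and 3 at 8-fold. The causes were not tested. The fit compares treatments within days, and without the term for day 0 members were called as well. Depth limits the control libraries of days 3 and 7, with 262 and 230 reads on the members.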
